A study of Rattus norvegicus with 6 samples.

Results

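The simple-epithelial keratins Krt7, Krt8, Krt18 and Krt19, the adhesion molecule Epcam, the transcription factor Sox9 and the secreted phosphoprotein Spp1 were measured in the livers of animals on a high-fat diet, with or without the herbal granule HTG. These 7 genes were chosen by name, and each symbol had 1 row among the 32930 genes listed. In edgeR 0 of them had an adjusted p below 0.05, which 0.0108% of all genes tested reached, while 3 had an unadjusted p below 0.05 (24.7% of all genes) and DESeq2 called 1, Krt18 (14.7% of the genes it adjusted). Sox9 and Krt18 were higher in every HTG library than in any HFD library, Epcam was lower in every HTG library, and the groups overlapped for Krt7, Krt8, Krt19 and Spp1. Groups that did not overlap were found for 32.1% of all genes.

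Keratins are intermediate filament proteins that assemble as pairs of a type I and a type II chain. Krt8 (type II) and Krt18 (type I) form the filament network of hepatocytes, while bile duct cells, or cholangiocytes, make Krt7 (type II) and Krt19 (type I) as well. Epcam, Sox9 and Spp1 also mark duct cells and the progenitor-like cells that appear in injured liver, and Spp1, which encodes osteopontin, is also made by macrophages.

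Per the labels, the HFD group received a high-fat diet and the vehicle, 0.5% CMC-Na, and the HTG group the diet and HTG, the Huazhuo Tiaozhi granule. There were 3 livers per group, and the labels give 12 weeks of intervention and name the vehicle for HFD only. In the study's rat design the diet lasted 12 weeks, and HTG, suspended or dissolved in 0.5% CMC-Na, was given only over the later part of them. Which schedule these livers followed cannot be told from the sources used here. The treatment label of the HTG libraries reads HCG where their titles read HTG, and the titles were followed. The study's RNA sequencing methods name C57BL/6 J mice, the labels name Rattus norvegicus, and all 32930 gene rows carry mouse identifiers. The genes are therefore named here by their mouse entries. Strain, sex and age cannot be assigned to these animals from the sources used here. Livers on a normal diet were not analysed here.

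The estimated counts summed to between 50648778 (HTG library 3) and 90563477 (HTG library 2) per library. Among low counts the multiples of 4 stood out from their neighbours: a count of 4 was seen 6450 times, against 2549 for 3 and 1757 for 5, and a count of 8 was seen 3333 times, against 1521 for 7 and 1170 for 9. Counts of 1 and 2 were also common (5104 and 4229 times), so the steps are not exact. As an approximation, 1 sequenced fragment was taken as 4 counts, and the fragment numbers below rest on it. A gene seen with no fragment could still have had up to 3 fragments, or 12 counts, by counting error alone. All 7 genes were above that limit in every library. The lowest values were 36 counts (about 9 fragments) for Krt19, 53 (about 13) for Krt7 and 61 (about 15) for Epcam. These genes are measured with far fewer fragments than Krt8 or Krt18, whose lowest values were 12491 and 12271 counts. Across genes, log2 levels correlated with r between 0.972 and 0.980 within HFD, between 0.975 and 0.978 within HTG and between 0.950 and 0.980 across the groups.

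Promoter sequence was available for 4 of the 7 genes, Krt8, Krt18, Epcam and Spp1, in RefSeq's rat build GRCr8. The 250 bases before the annotated start are shown for Krt8 and Krt18, the filament pair whose levels are compared below, and for Epcam, the member that was lower in every HTG library. Capitals mark matches on either strand to TATAAA (the TATA box), GGGCGG (the GC box of Sp1-type factors) and TGANTCA (the AP-1 site). The windows lie at chr7:135010340-135010589 (minus strand), chr7:135035918-135036167 (plus strand) and chr6:12649679-12649928 (minus strand), so the Krt8 and Krt18 windows are neighbours on rat chromosome 7.
Krt8: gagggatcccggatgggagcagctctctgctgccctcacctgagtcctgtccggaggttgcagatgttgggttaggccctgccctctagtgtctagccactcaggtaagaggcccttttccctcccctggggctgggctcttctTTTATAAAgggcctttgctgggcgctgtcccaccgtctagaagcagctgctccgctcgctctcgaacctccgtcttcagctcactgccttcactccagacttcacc
Krt18: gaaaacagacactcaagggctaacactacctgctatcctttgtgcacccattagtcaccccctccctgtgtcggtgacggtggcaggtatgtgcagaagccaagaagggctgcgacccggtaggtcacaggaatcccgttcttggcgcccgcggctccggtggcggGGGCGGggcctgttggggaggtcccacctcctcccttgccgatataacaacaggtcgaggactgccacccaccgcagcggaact
Epcam: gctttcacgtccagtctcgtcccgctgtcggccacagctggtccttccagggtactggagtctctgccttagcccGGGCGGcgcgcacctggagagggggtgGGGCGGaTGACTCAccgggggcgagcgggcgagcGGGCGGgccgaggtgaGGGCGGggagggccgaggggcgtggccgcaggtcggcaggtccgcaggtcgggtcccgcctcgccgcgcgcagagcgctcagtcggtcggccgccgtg
The Krt8 window held TATAAA on both strands, 106 to 101 and 104 to 99 bases before the start, in matches that overlap each other. The Krt18 window held 1 GGGCGG, 84 to 79 bases before the start, and no exact TATAAA. Whether any match acts in the promoter was not tested. The Epcam window, with 75.6% G and C against 60.0% in Krt8 and 62.0% in Krt18, held GGGCGG at 4 positions and TGANTCA at 1, read the same on both strands. Of the 33469 rat promoter windows of this length, 12.9% held TATAAA, 30.5% held GGGCGG and 6.34% held TGANTCA. These matches describe the rat sequence only.

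Krt18 and Krt8 were by far the most abundant of the 7 genes. On the FPKM scale, which divides fragments by transcript length and library total and so allows genes to be compared, the mean level over the 6 libraries was 207 ± 92.2 FPKM for Krt18, 128 ± 34.4 for Krt8 and 46.8 ± 13.2 for Spp1 (SD, n = 6). Far below came Sox9 with 1.17 ± 0.349 FPKM, Epcam with 0.937 ± 0.425, Krt19 with 0.803 ± 0.348 and Krt7 with 0.177 ± 0.0197 (SD, n = 6). The FPKM ranges of Krt18 and Krt8 overlapped, although Krt18 was higher in 6 of 6 libraries. Sox9, Epcam and Krt19 could not be ordered: Sox9 was above Epcam in 4 of 6 libraries and Epcam above Krt19 in 3 of 6. Spp1 lay apart from its neighbours in that order in all 6 libraries, and Krt7 was the lowest in all 6. Krt8 and Krt18 together took between 79.6% and 91.4% of the summed FPKM of the 7 genes. Albumin, the main secreted protein of hepatocytes, averaged 24500 FPKM in the same libraries, so the labelled tissue was present. By FPKM, Krt19 ranked between 10182 and 14625 and Krt7 between 15449 and 16766 among the 32930 genes, against 116 to 394 for Krt18.

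**Figure D1:**
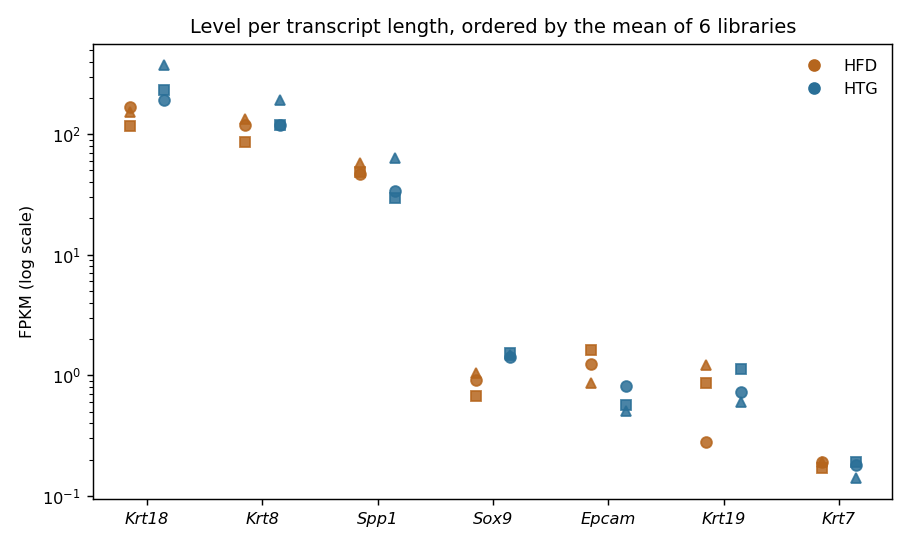
FPKM of the 7 genes (log scale) in the 3 HFD and the 3 HTG libraries, ordered by the mean of all 6; circles, squares and triangles are libraries 1, 2 and 3. Krt18, Krt8 and Spp1 lie between 29.77 and 376.90 FPKM, and the other 4 genes between 0.14 and 1.62.

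The first comparison asked whether the hepatocyte filament pair differed with HTG. Each gene is compared between libraries as CPM, the share of a library's counts after edgeR's TMM scaling, with single libraries listed in the order 1, 2 and 3. All p-values are from edgeR's quasi-likelihood test, and adjusted ones are Benjamini-Hochberg values over every gene tested. Krt18 (ENSMUSG00000023043, chromosome 15, 101936615 to 101940462, plus strand, coordinates as the deposited table lists them without naming a build) had 243, 184 and 221 CPM under HFD and 296, 332 and 622 CPM under HTG. The groups did not overlap, and HTG library 3 stood well above the other 2 HTG libraries. The means were 216 ± 29.7 and 417 ± 179 CPM (SD, n = 3 per group), 1.93-fold higher in HTG. On the log2 scale the difference was 0.95 (95% interval 0.25 to 1.65, SE 0.31, edgeR adjusted p = 0.111, unadjusted 0.0142). Without HTG library 3 the log2 fold change was 0.54 with an unadjusted p of 0.0597 in the same edgeR test. DESeq2 gave 0.92 with an adjusted p of 0.0221, the only adjusted p below 0.05 for any of the 7 genes in any of the fits run. In bulk liver, more cells that express a gene and more of its RNA per cell cannot be told apart, here and for every gene below.

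Krt8 (ENSMUSG00000049382, chromosome 15, 101905133 to 101912917, minus strand) had 233, 187 and 264 CPM under HFD and 252, 230 and 429 CPM under HTG. Only HTG library 3 lay above the HFD range. The log2 fold change was 0.41 (95% interval -0.23 to 1.06, SE 0.28, edgeR adjusted p = 0.400), and 0.08 without HTG library 3.

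The groups also lay apart in the ratio of the pair. The ratio of Krt18 FPKM to Krt8 FPKM was 1.42, 1.34 and 1.14 under HFD and 1.60, 1.97 and 1.98 under HTG. Every HTG ratio was above every HFD ratio, and HTG library 3, high in both genes, had nearly the same ratio as HTG library 2. The means were 1.30 ± 0.142 and 1.85 ± 0.213 (SD, n = 3 per group). The ratio was examined after the values of both genes were known and was not tested. A processed pseudogene, Krt8-ps, had 261 counts over all libraries against 109490 for Krt8, and how reads shared by both were counted is not given in the sources used here.

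**Figure D2:**
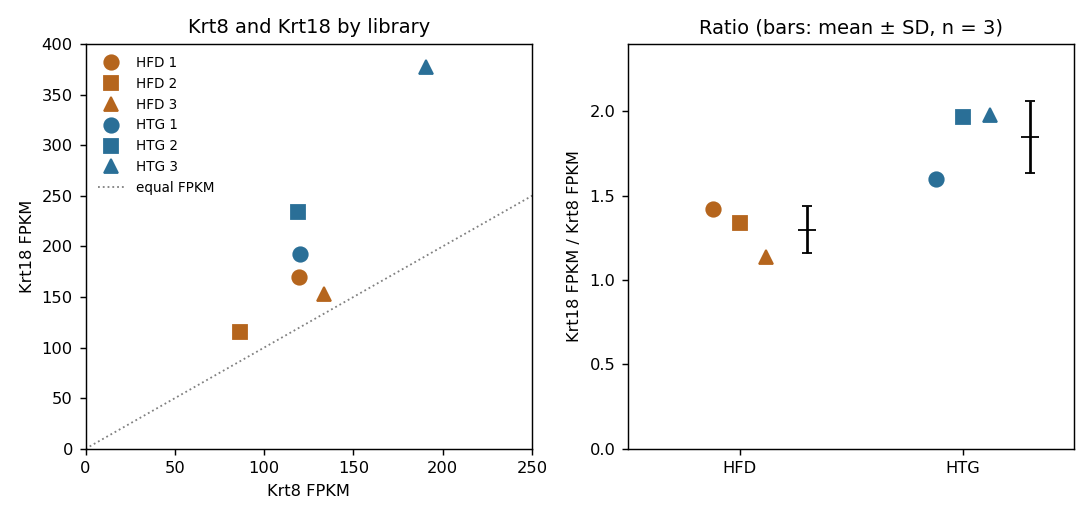
Left, Krt18 FPKM against Krt8 FPKM in each of the 6 libraries, with a dotted line of equal FPKM; right, the ratio of Krt18 to Krt8 FPKM per library, with the mean and SD of 3 libraries per group. The HTG ratios lie between 1.60 and 1.98, above the HFD ratios of 1.14 to 1.42.

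The next comparison concerned the keratins of duct cells. Krt7 (ENSMUSG00000023039, chromosome 15, 101308924 to 101328194, plus strand) had 1.38, 1.33 and 1.34 CPM under HFD and 1.35, 1.35 and 1.13 CPM under HTG. The groups overlapped, and 5 of the 6 values lay within 0.05 CPM of each other. Its log2 fold change was -0.08 with a 95% interval of -0.81 to 0.65 (edgeR adjusted p = 0.905), so differences within that interval are not excluded. Krt19 (ENSMUSG00000020911, chromosome 11, 100031636 to 100036946, minus strand) had 0.529, 1.80 and 2.28 CPM under HFD and 1.45, 2.08 and 1.28 CPM under HTG. HFD library 1 was the lowest and HFD library 3 the highest of all, so the spread within HFD enclosed the HTG group. The log2 fold change was 0.06 with a 95% interval of -1.14 to 1.26 (edgeR adjusted p = 0.956), and it was -0.35 without HFD library 1 and -0.17 without HTG library 2. The ratio of Krt19 to Krt7 FPKM was 4.34 ± 2.56 and 4.74 ± 1.05 (SD, n = 3 per group), again with the wider spread within HFD.

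Sox9, a transcription factor of duct and progenitor cells, had the smallest p of the 7 genes. Sox9 (ENSMUSG00000000567, chromosome 11, 112673050 to 112678586, plus strand) had 3.76, 3.09 and 4.39 CPM under HFD and 6.24, 6.25 and 6.98 CPM under HTG. The 3 HTG libraries lay close together and all above the HFD range. The means were 3.74 ± 0.648 and 6.49 ± 0.425 CPM (SD, n = 3 per group), 1.73-fold higher in HTG. On the log2 scale the difference was 0.79 (95% interval 0.26 to 1.33, SE 0.23, edgeR adjusted p = 0.0939, unadjusted 0.00888). The unadjusted p stayed under 0.05 in each of the 6 edgeR fits that left out 1 library, and the adjusted p did not pass in any of them (0.133 to 0.246). In DESeq2 its adjusted p was 0.0509.

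Epcam, an adhesion molecule of duct and progenitor cells, was lower in HTG. Epcam (ENSMUSG00000045394, chromosome 17, 87943407 to 87958557, plus strand) had 2.75, 3.96 and 1.91 CPM under HFD and 1.90, 1.24 and 1.30 CPM under HTG. The groups did not overlap, but HFD library 3 and HTG library 1 were almost equal. The value in HTG library 3 rests on 61 counts (about 15 fragments). The means were 2.87 ± 1.03 and 1.48 ± 0.365 CPM (SD, n = 3 per group). On the log2 scale the difference was -0.95 (95% interval -1.80 to -0.11, SE 0.37, edgeR adjusted p = 0.158, unadjusted 0.0312). The unadjusted edgeR p was 0.0563, 0.129, 0.0921 and 0.0829 without HFD library 1, HFD library 2, HTG library 2 and HTG library 3. The fitted differences of the duct markers Sox9 and Epcam thus had opposite signs. Their FPKM ratio, Sox9 to Epcam, was 0.728, 0.414 and 1.22 under HFD and 1.74, 2.68 and 2.88 under HTG. That the groups lay apart in this ratio follows from the values of the 2 genes, and the ratio was not tested.

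Spp1 (ENSMUSG00000029304, chromosome 5, 104582984 to 104588916, plus strand) had 76.9, 88.3 and 96.4 CPM under HFD and 59.6, 48.5 and 121 CPM under HTG. HTG libraries 1 and 2 were below all HFD libraries and HTG library 3 was above them. The log2 fold change was -0.19 with a 95% interval of -0.94 to 0.55 (edgeR adjusted p = 0.750). Without HTG library 3 it was -0.68 (unadjusted p = 0.0176, adjusted p = 0.211) and without HTG library 2 it was 0.05, both from the same edgeR test. HTG library 3, which had the fewest counts, was thus the highest of the 6 for Krt8, Krt18, Sox9 and Spp1 in CPM. It was the lowest for Krt7. In FPKM the highest Sox9 value was in HTG library 2 (1.53, against 1.47 in HTG library 3). Whether the depth of HTG library 3 had a part in this was not tested. The gene Gm42793 lies inside the span of Spp1 on the same strand and had 44 counts against 33089 for Spp1.

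**Figure D3:**
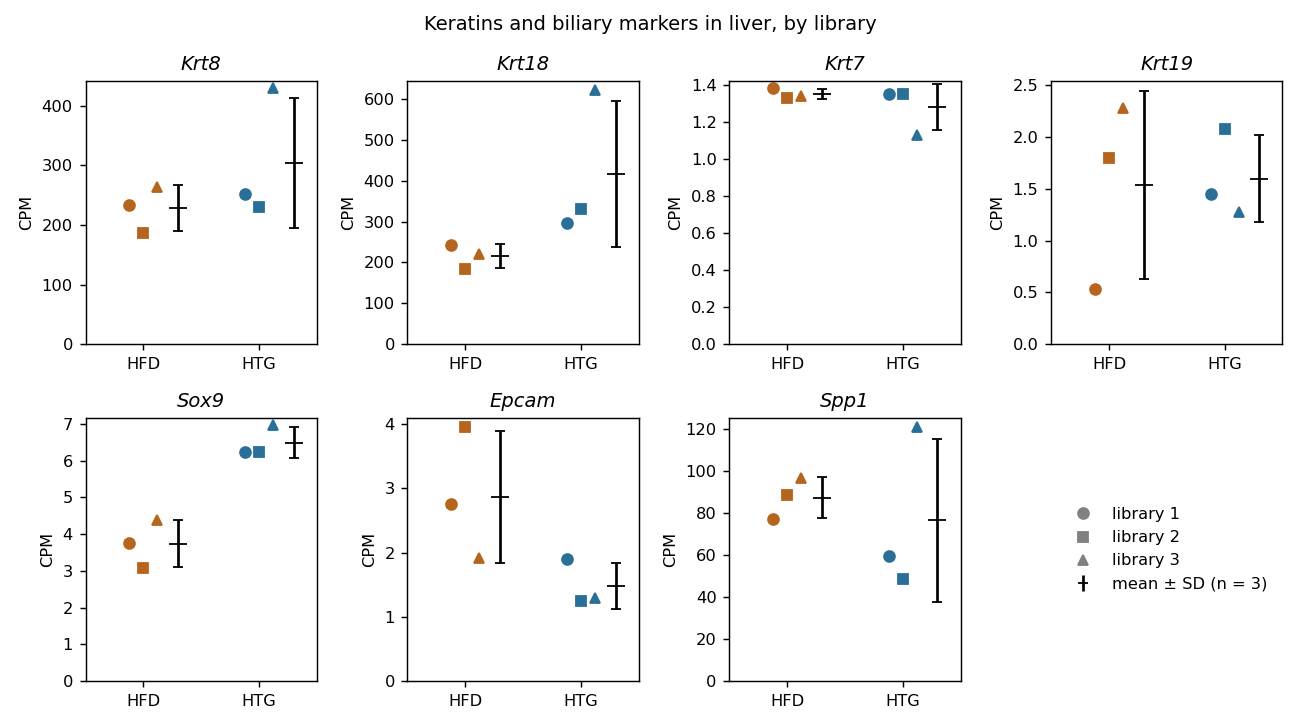
CPM of each of the 7 genes in the 3 HFD and 3 HTG libraries (circle, square and triangle for libraries 1, 2 and 3; black bars, mean ± SD, n = 3), each panel from 0. The HTG points lie above the HFD points for Krt18 and Sox9 and below them for Epcam, by 0.01 CPM between the nearest pair for Epcam.

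Across all 18455 genes tested, edgeR gave 0.0108% an adjusted p below 0.05 (0.00542% higher and 0.00542% lower in HTG), and 0 of the 7 genes were among them. An adjusted p below 0.1 was reached by Sox9 alone of the 7, against 5.41% of all genes higher and 5.43% lower in HTG. At an unadjusted p below 0.05, 2 of the 7 were higher and 1 was lower, against 12.3% and 12.4% of all genes (24.7% together). None of the 7 had both that p and a log2 fold change beyond 1 in either direction, called the volcano thresholds here, which 8.85% of all genes passed, 4.97% as higher and 3.88% as lower. The groups did not overlap for 2 of the 7 on the higher side and 1 on the lower side, against 16.5% and 15.5% of all genes. DESeq2 gave an adjusted p below 0.05 to 1 of the 7, Krt18, against 6.60% of its 14725 genes as higher and 8.14% as lower. The median log2 fold change was 0.06 over the 7 genes and 0.03 over all genes tested. With 3 libraries against 3, an exact permutation test of 1 gene cannot go below p = 0.1.

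**Figure D4:**
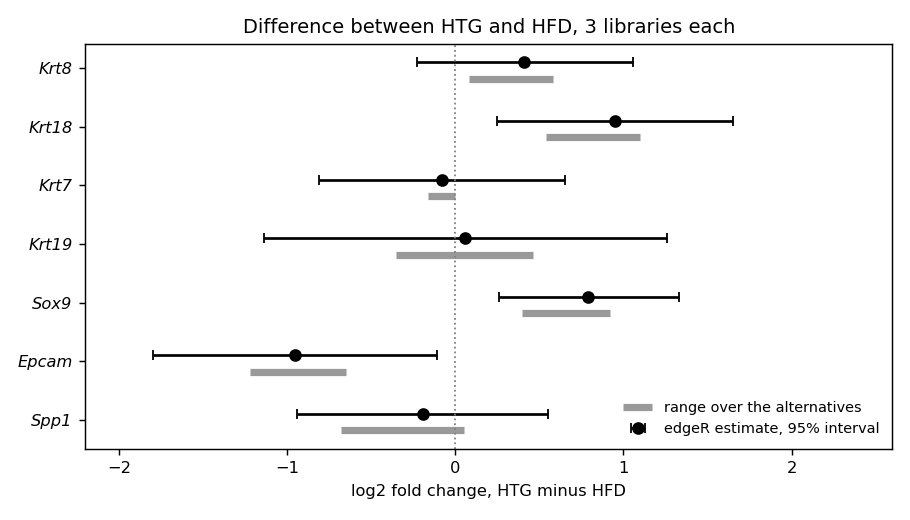
Log2 fold change of each gene, HTG minus HFD (black points, edgeR estimate with its 95% interval, 3 libraries per group), and the range of the estimate over the alternative fits (grey bars). The intervals of Sox9, Krt18 and Epcam lie on 1 side of 0, from 0.26 to 1.33, from 0.25 to 1.65 and from -1.80 to -0.11, and those of the other 4 genes include 0.

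The other keratins were nearly absent. Of 18 further keratin genes in the table, 14 were at or under 12 counts in every library and 3 passed edgeR's expression filter. The highest were Krt10, a keratin of differentiated epidermis, with 0.427 FPKM on average, Krt23 with 0.412 and Krt80 with 0.103, followed by Krt222 (0.0233), Krt4 (0.0217), Krt20 (0.0100), Krt77 (0.00667) and Krt5 (0.00500). Of the 3 tested, 0 had an unadjusted p under 0.05 (24.7% of all genes), and their log2 fold changes ran from -1.24 (Krt23) to 0.64 (Krt10). The keratin RNA of these livers was thus nearly all Krt8 and Krt18.

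A list of 30 other genes of duct and progenitor cells was tested, and edgeR gave none of them an adjusted p below 0.05. DESeq2 called 1 higher and 2 lower, against 6.60% and 8.14% of its genes. By unadjusted p, 1 was higher and 2 were lower in HTG, against 12.3% and 12.4% of all genes. The volcano thresholds were passed by 1 of each, against 4.97% and 3.88% of all genes. The median log2 fold change was -0.10, with 14 fitted values above 0 and 16 below. Tspan8, a tetraspanin of epithelial membranes, had 1.75 ± 0.720 CPM in HFD and 0.298 ± 0.0285 in HTG (SD, n = 3 per group), with the smallest p of the list (log2 fold change -2.55, standard error 0.46, edgeR adjusted p = 0.0553). Its HTG values rest on 15 to 26 counts, close to the 12 counts of that limit. Cd24a, a surface protein used to sort liver progenitor cells, had 6.83 ± 0.451 CPM in HFD and 3.73 ± 0.692 in HTG (SD, n = 3 per group; log2 fold change -0.87, edgeR adjusted p = 0.0809). Onecut1, also called Hnf6, a factor of both hepatocytes and developing ducts, had 2.66, 4.75 and 7.45 CPM under HFD and 14.0, 6.58 and 27.5 CPM under HTG. HTG library 2 lay inside the HFD range, and the adjusted p was 0.107 (log2 fold change 1.69). Cldn7, a tight junction claudin, had 1.16 ± 0.520 CPM in HFD and 0.581 ± 0.0344 in HTG (SD, n = 3 per group), with an adjusted p of 0.219. The most abundant of the list, Lgals3 (23.1 FPKM) and the water channel Aqp1 (9.50 FPKM), which macrophages and endothelium also make, had log2 fold changes of -0.17 and -0.48. Duct-defining genes were scarce: the chloride channel Cftr had 7 to 32 counts per library and the secretin receptor Sctr 17 to 42.

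A list of 18 genes held proteins that anchor, modify or bind keratin filaments, and the other intermediate filament proteins Vim, Des and Lmna. An unadjusted p below 0.05 was found for 2 that were higher (Pkp3 and Des) and 4 that were lower. The shares of all genes were 12.3% and 12.4%. No adjusted p passed in edgeR (DESeq2 0 higher and 3 lower, against 6.60% and 8.14% of its genes). The median log2 fold change was -0.33. Desmoplakin (Dsp), which ties keratin filaments to desmosomes, had 45.0, 49.6 and 36.9 CPM under HFD and 24.5, 13.6 and 19.7 CPM under HTG, with no overlap and a log2 fold change of -1.18 (standard error 0.24, adjusted p = 0.0582). Plakophilin 3 (Pkp3), another desmosomal protein, was at lower levels and higher in HTG, with 1.14 ± 0.413 CPM in HFD and 2.42 ± 0.446 in HTG (SD, n = 3 per group; adjusted p = 0.123). Sqstm1, which encodes p62 and accumulates with Krt8 and Krt18 in the Mallory-Denk bodies of injured hepatocytes, had 443, 835 and 436 CPM under HFD and 361, 175 and 234 CPM under HTG. No HTG value reached an HFD value, and its log2 fold change of -1.15 had an SE of 0.36 and an edgeR adjusted p of 0.102. The chaperone Dnajb6, which binds Krt18, had 75.6 ± 9.56 CPM in HFD and 42.9 ± 7.55 in HTG (SD, n = 3 per group; log2 fold change -0.82, adjusted p = 0.0627), and the abundant chaperone Hspa8 had a log2 fold change of -0.35 (adjusted p = 0.397). Over the whole list, 6 of the 18 fitted values were above 0, as was that of Krt18, and 12 were below.

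A list of 26 genes held those of Notch, YAP and TGF-beta signalling, pathways that set duct cell fate and act on Sox9, and the transcription factor Hhex. Its median log2 fold change was -0.01. Of them, 1 was higher and 3 were lower by unadjusted p, against 12.3% and 12.4% of all genes. None passed by adjusted p in edgeR (DESeq2 1 higher and 3 lower, against 6.60% and 8.14% of its genes). The Notch target Hes1 had 5.02, 5.71 and 3.49 CPM under HFD and 9.81, 22.5 and 5.68 CPM under HTG. HTG library 3 was within the HFD range for Hes1, and the adjusted p was 0.115 (log2 fold change 1.42). Rbpj, the DNA-binding partner of Notch, was lower in HTG without overlap (14.5 ± 2.94 and 8.36 ± 0.876 CPM, SD, n = 3 per group; log2 fold change -0.80, adjusted p = 0.0757). Ccn2, a target of YAP and TGF-beta, had a log2 fold change of -1.39 (adjusted p = 0.0958), and the TGF-beta receptor Tgfbr2 of -1.20 (adjusted p = 0.0605), again without overlap. Yap1 itself had 49.2 ± 6.54 CPM in HFD and 43.0 ± 7.51 in HTG (SD, n = 3 per group; log2 fold change -0.20), and Hhex, the most abundant of the list, had a log2 fold change of 0.58 (adjusted p = 0.245).

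For osteopontin, 19 genes of its receptors and of the macrophages and matrix it is found with were tested. By unadjusted p, 7 were lower and 0 were higher in HTG, against 12.4% and 12.3% of all genes. The median log2 fold change was -0.37. None passed by adjusted p in edgeR (DESeq2 0 higher and 2 lower, against 6.60% and 8.14% of its genes). The integrin chains Itgb1 and Itgb5, which bind osteopontin in pairs with alpha chains, had log2 fold changes of -0.80 (adjusted p = 0.0710) and -0.59 (adjusted p = 0.115). Gpnmb, a marker of lipid-laden macrophages, had 132, 105 and 108 CPM under HFD and 53.1, 23.0 and 4.27 CPM under HTG. It was lowest in HTG library 3, where Spp1 was highest, and its adjusted p was 0.118 (log2 fold change -2.10). Mmp7, a matrix protease of duct cells that cleaves osteopontin, had 2.94 ± 0.920 CPM in HFD and 0.574 ± 0.361 in HTG (SD, n = 3 per group; log2 fold change -2.35, adjusted p = 0.0604). Its HTG values rest on only 77, 32 and 19 counts. Vtn, a plasma adhesion protein and the most abundant of the list, had a log2 fold change of 0.25 (adjusted p = 0.612).

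**Figure D5:**
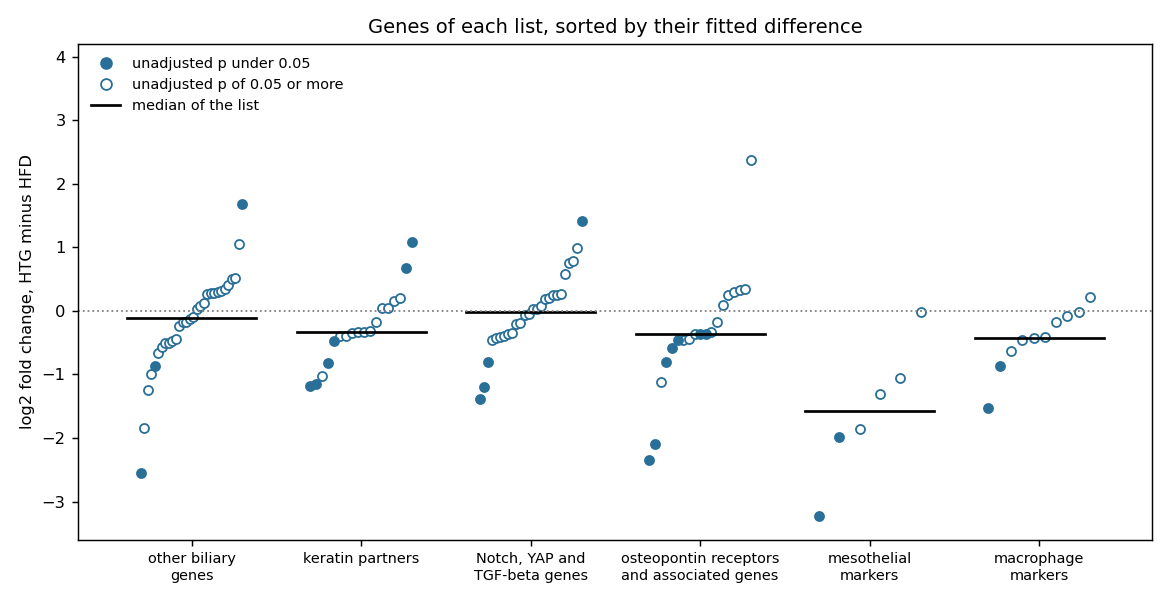
Log2 fold change (HTG minus HFD, 3 libraries per group) of each tested gene of 6 lists, sorted within the list; filled points had an unadjusted p under 0.05 in edgeR and black lines are medians. The medians run from -0.01 (Notch, YAP and TGF-beta genes, with Hhex) to -1.58 (mesothelial markers).

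Other cell types of the liver can carry these genes, and their markers were measured beside them. The mesothelium that covers the liver makes the same 4 keratins. Its 6 markers summed to between 1.01 and 2.16 FPKM in HFD and between 0.260 and 0.570 FPKM in HTG, without overlap. All 6 had fitted values below 0, but Wt1 was at -0.01. Only 1 of the 6, Gpm6a, was lower without overlap by itself, against 15.5% of all genes. Gpm6a had 0.79, 0.56 and 0.86 FPKM under HFD and 0.30, 0.14 and 0.09 FPKM under HTG. It thus made up 0.79 of the 1.01 FPKM in HFD library 1, the lowest HFD sum, and the separation of the sums leans on this gene. Krt7 and Krt19, which the mesothelium makes as well, had log2 fold changes of -0.08 and 0.06. Msln was at 0 counts in HTG library 3 and at 2 counts in HFD library 1, against 159 and 167 counts in HFD libraries 2 and 3, and Upk1b was at 0 in 3 libraries. The 10 macrophage markers summed to between 401 and 785 FPKM in HFD and between 297 and 582 FPKM in HTG, lowest in HTG library 3. Of them, 2 were lower and 0 higher by unadjusted p, against 12.4% and 12.3% of all genes. The part of these cells in the values of Epcam or Spp1 was not tested. The 7 endothelial and 6 leukocyte markers had no gene with an unadjusted p below 0.05, the 8 stellate cell markers had 1 (Reln, lower), and their summed levels overlapped between the groups. Of the 7 hepatocyte markers tested, Apoa1 was higher and Cps1 lower by unadjusted p, and the summed levels were between 41900 and 46700 FPKM in HFD and between 40700 and 47300 FPKM in HTG. Of 3 exocrine pancreas markers in the table, Pnlip and Ctrb1 were at 0 counts in every library, and Cela1 had a mean of 2.37 FPKM.

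By the similarity of their log2 CPM over the 6 libraries, the genes most like each member among the 14370 with a mean of at least 50 counts were found as a description. They were Gm6493 (r = 0.996) and Padi4 (r = 0.994) for Krt18, Mad1l1 (r = 0.986) and C4a (r = 0.981) for Krt8, and Alg12 (r = 0.993) and 4930556M19Rik (r = 0.993) for Sox9. Epcam was most like Cdv3 (r = 0.999) and Zhx3 (r = 0.997), and Spp1 most like Gm8186 (r = 0.991) and Nsd2 (r = 0.987). Krt7 was most like Dennd2a (r = 0.989), and Krt19 most like Far1 (r = 0.990) and Tbl3 (r = 0.979). No member was among the few nearest genes kept for another member. With so few kept of 14370, this does not tell whether the members vary together. Between members, r ran from -0.93 (Epcam with Sox9) to 0.89 (Krt8 with Krt18). All these values come from the same 6 libraries, 3 of each group. The r of each nearest gene is among the highest of 14370, so it is large by selection.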

How the data were processed

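Liver RNA of 3 HFD and 3 HTG animals was sequenced, and samples were grouped by their titles. For every gene and library the authors gave whole-number estimated counts, without scaling to depth, beside FPKM values, in which they divided by transcript length and library total. HISAT2, StringTie and SAMtools and the rat build mRatBN7.2 are named in the submitters' processing notes without versions or roles, while the gene rows carry mouse identifiers, so the build of the coordinates is not known here. Filters and the use of strand are not given in the sources used here, so counts of overlapping or antisense genes are uncertain: Gm671 and Gm36026 overlap Krt7 and Krt8 on the opposite strand, with 12 and 17 counts over all libraries.

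Counts were compared by edgeR 4.0.16 in R 4.3.3 (TMM scaling, filterByExpr, glmQLFit and glmQLFTest, group as the only term) over the 18455 genes that passed the filter, with Benjamini-Hochberg adjustment over all of them. Standard errors are the absolute log2 fold change divided by the square root of F. Whether the libraries of a group are separate animals is given only by the study's design, and p-values measure the spread between these 6 libraries. Alternatives were DESeq2 1.42.0, limma 3.58.1 on log2(FPKM + 0.1) or log2(FPKM + 1) where the mean FPKM reached 1, other filters and scalings, counts divided by 4, the replicate number as a block and each library left out. The scripts were tested on simulated counts. The 7 genes, the 12 other lists and the tests were chosen with earlier results of these data known. The genes named besides the members are, in each list, the 4 with the smallest p and the 2 with the highest FPKM, and of the other keratins the 8 with the highest FPKM. Markers of other cell types are given mainly as summed FPKM, and Cftr, Sctr, Upk1b, Pnlip, Ctrb1 and Krt8-ps were named after their values were seen. Lgals3 and Krt23 each stand in 2 lists. Likeness used log2(CPM + 0.1), and 1 gene that it named is not reported here. Tf, Prss1, Cpa1 and Amy2a1 were not analysed here.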

Additional observations from a re-analysis of the deposited data

How the results depend on the processing

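Over 17 alternative fits (15 for Krt7, Krt19 and Epcam, whose mean FPKM was under 1), the log2 fold change ran from 0.40 to 0.92 for Sox9, 0.54 to 1.10 for Krt18, -1.22 to -0.65 for Epcam and 0.08 to 0.58 for Krt8, each keeping its sign. Leaving out 1 library gave -0.16 to 0.00 for Krt7, -0.35 to 0.46 for Krt19 and -0.68 to 0.05 for Spp1. Signs turned for Krt19 without HFD library 1 (-0.35) and without HTG library 2 (-0.17), for Spp1 without HTG library 2 (0.05) and for Krt7 without HTG library 3 (0.00). Of the 7 genes, DESeq2 gave 1 an adjusted p under 0.05, Krt18, against 0 in edgeR. Leaving out 1 library gave no member an adjusted p below 0.05, and between 0 and 2 members (Krt18, Epcam or both), between 2 and 4 of the biliary genes (4 without HFD library 3) and between 0 and 1 of the other keratins past the volcano thresholds. Limma on FPKM with the filter on low values put 1 biliary gene past them with a pseudocount of 0.1 and 0 with 1. Fewer of these genes were tested there, and the cause of the difference between the pseudocounts was not tested. Over all genes, calls at an adjusted p below 0.05 numbered 2 in edgeR, 2171 in DESeq2, 684 with at least 10 counts in every library, 822 with counts divided by 4, 162 without a filter, 878 and 884 in the filtered limma fits, 653 without HTG library 1 and 7 without HFD library 2, and 0 in unfiltered limma, with library totals alone, with the replicate block and in the fits that lacked HFD library 3, HTG library 2 or HTG library 3. In no fit did scaling move the median of all genes by over 0.1. The replicate numbers did not pair the libraries: deviations of equally numbered HFD and HTG libraries correlated with r of -0.13, -0.11 and 0.19, and HFD library 2 was most like HTG library 1 (0.29). With the replicate block, 0 members were called, and the log2 fold changes of Sox9, Krt18 and Epcam were 0.81, 0.88 and -0.92. Depth limits Krt19, Krt7 and Epcam most, at 9, 13 and 15 fragments in their lowest library.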
